A study of Mus musculus with 67 samples.

Results

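The genes described here are the 8 MHC class II presentation genes H2-Ab1, H2-Aa, H2-Eb1, H2-DMa, H2-DMb1, H2-DMb2, Cd74 and Ciita. They were chosen by name from a deposited expression table of 29579 genes, in which all 8 had a row, with measured TPM of these same libraries already known, so each test below describes a fit and is not independent support for the choice. The table holds bulk RNA-seq of mouse small intestine, with 49 libraries from cultured organoids in 10 groups and 18 libraries from crypts in 9 groups of 2. Values are TPM, the usual length-corrected measure of transcript abundance, in which a library's reads are divided by gene length and scaled to the library's total, so that levels can be compared between genes within a library, while comparisons between libraries also depend on the scaling.

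The organoids came from the proximal small intestine of mice aged 6 to 12 weeks, and the strain was not given for these cultures. The ENR medium held EGF (50 ng/mL), noggin (100 ng/mL) and R-Spondin 1 (500 ng/mL). The 8C medium held valproic acid (VPA, 500 µM), an inhibitor of histone deacetylases, and EPZ6438 (2 µM), an inhibitor of the H3K27 methyltransferase EZH2. It also contained the BMP receptor inhibitor LDN193189 (0.2 µM), GSK-3 Inhibitor XV (0.1 µM), Pexmetinib (1 µM), EGF (50 ng/mL), bFGF (20 ng/mL) and 10% R-Spondin 1 conditioned medium. The groups were 8C (7 libraries), ENR (7), 8C -VE without both VPA and EPZ6438 (7), 8C -V without VPA (6), 8C -E without EPZ6438 (7), and 8C -GSK3i, 8C -Pex, 8C -EGF, 8C -bFGF and ENR +VE (3 each). The 8C -V organoids thus still held EPZ6438, and the 8C -E organoids still held VPA. The doses of VPA and EPZ6438 in ENR +VE were not given. The crypts were either normal or taken 1, 2, 3 or 5 days after a single dose of 12 Gy irradiation of 8-week-old female C57BL/6 mice, without (IR) or with (IR +VE) both compounds by daily gavage, EPZ6438 at 0.6 mg/kg and VPA at 40 mg/kg. The age and sex behind the normal crypts were not given separately. The paper's figure legends give 3 mice for the organoid profiles and 2 mice for the crypts on day 3. The labels do not tie libraries to mice, and the larger organoid groups hold more libraries than the mice described, so some may share an animal. P-values measure only the spread between these libraries.

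MHC class II molecules are heterodimers of an α and a β chain that carry peptides from the endosome to the cell surface, where CD4+ T cells read them. H2-Aa and H2-Ab1 encode the α and β chains of the mouse I-A molecule, and H2-Eb1 encodes the β chain of I-E. Cd74 encodes the invariant chain, which holds the groove shut and guides the dimer to the endosome. H2-DMa with H2-DMb1 or H2-DMb2 forms the DM exchange factor that removes the remnant of the invariant chain there. Ciita is the class II transactivator, which is recruited by factors bound to the X and Y boxes of class II promoters and is induced by interferon γ. In the intestine the genes are highest in professional antigen-presenting cells, and the epithelium is also known to express them.

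In the GENCODE vM21 annotation of GRCm38, all 8 are protein-coding genes. H2-DMa (17:34119541-34139101), H2-DMb2 (17:34143307-34151555), H2-DMb1 (17:34153072-34160230), H2-Ab1 (17:34257689-34269419) and H2-Eb1 (17:34305867-34316674) lie on the plus strand of the MHC on chromosome 17, and H2-Aa (17:34282744-34287823) lies on its minus strand. Cd74 (18:60803848-60812652) and Ciita (16:10480059-10528418) lie elsewhere, both on the plus strand.

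Whether reads were counted by strand was not given, so reads in overlapping exons cannot be told apart. H2-DMa shares 360 of its 3448 exonic bases (10.4%) with Brd2 on the other strand, which stood at a mean of 117 TPM in 8C and 157 TPM in ENR. Ciita shares 329 of 9535 (3.45%) with Dexi, at 23.1 TPM in 8C and 12.3 TPM in ENR. H2-DMb1 and H2-DMb2 have 369 50-base words in common, 22.7% and 21.2% of their own words, so reads of the pair could be split or lost between them.

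Promoter sequences from RefSeq (GRCm38.p6) are shown for 4 members that were at or under 1.84 TPM in every ENR library and above 0 in every crypt library, as the 150 bases before the transcription start, 5′ to 3′ on the gene's strand. They are chr17:34287824-34287973 (minus strand) for H2-Aa, chr17:34153041-34153190 (plus) for H2-DMb1, chr17:34145099-34145248 (plus) for H2-DMb2 and chr17:34305717-34305866 (plus) for H2-Eb1. Capitals mark the letters AACNGATG, a core of the X box, and ATTGG or CCAAT, the Y box, each searched on both strands. The promoters of H2-Ab1, Cd74 and Ciita were not analysed here.
H2-Aa: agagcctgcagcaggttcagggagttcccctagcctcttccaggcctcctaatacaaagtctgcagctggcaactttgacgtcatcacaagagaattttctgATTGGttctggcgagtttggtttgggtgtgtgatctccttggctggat
H2-DMb1: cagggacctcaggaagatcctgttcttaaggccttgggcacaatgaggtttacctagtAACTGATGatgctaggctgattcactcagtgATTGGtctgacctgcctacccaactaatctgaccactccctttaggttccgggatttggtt
H2-DMb2: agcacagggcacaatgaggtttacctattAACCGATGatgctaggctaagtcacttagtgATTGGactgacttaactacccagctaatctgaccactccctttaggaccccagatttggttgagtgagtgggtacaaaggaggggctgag
H2-Eb1: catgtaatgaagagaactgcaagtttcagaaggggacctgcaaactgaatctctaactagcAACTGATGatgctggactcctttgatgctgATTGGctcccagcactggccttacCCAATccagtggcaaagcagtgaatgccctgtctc

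The X core and the first Y box started 31 bases apart in H2-DMb1 and H2-DMb2 and 30 bases apart in H2-Eb1, which had another Y box 35 bases before its start. H2-Aa had the Y box letters 48 bases before its start and no match to AACNGATG in this window. Of the 2 H2-DMa starts in RefSeq, neither window of 250 bases held the X core, and 1 held a Y box, 198 bases before its start. Of 32851 RefSeq windows of 250 bases, 33.8% held the Y box letters, 1.98% the X core and 0.688% both. AACNGATG followed by ATTGG starting 28 to 34 bases later on the same strand, a spacing chosen after these promoters were seen, was found in 5 windows (0.0152%). Those windows belonged to H2-Eb1, H2-DMb1, H2-DMb2, H2-Eb2 and BC051142. A match describes the letters only.

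The deposited TPM summed to between 983801 and 988144 per organoid library, with 1.52% to 6.64% from mitochondrial genes, and to between 819346 and 910935 per crypt library, with 10.6% to 48.4% from mitochondrial genes. The depth of the libraries is unknown, so no counting interval can be given for a low value. A gene was tested where its mean was at least 1 TPM over the libraries compared, and called where the adjusted p was under 0.05 and the difference at least 2-fold. Differences are on the log2(TPM + 1) scale, which understates the change of low genes.

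Among organoid groups, H2-Ab1 was the member whose level changed most with VPA and EPZ6438. It was at or under 4.59 TPM in every ENR and 8C -VE library, between 2.57 and 26.9 TPM with either compound alone, and between 64.4 and 239 TPM in every library with both. H2-DMa followed in the same direction over a narrower range. H2-Aa, the partner chain of H2-Ab1, stayed at or under 1.61 TPM in all 49 organoid libraries, and Cd74 was at or under 4.77 TPM in all but 1.

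**Figure D1:**
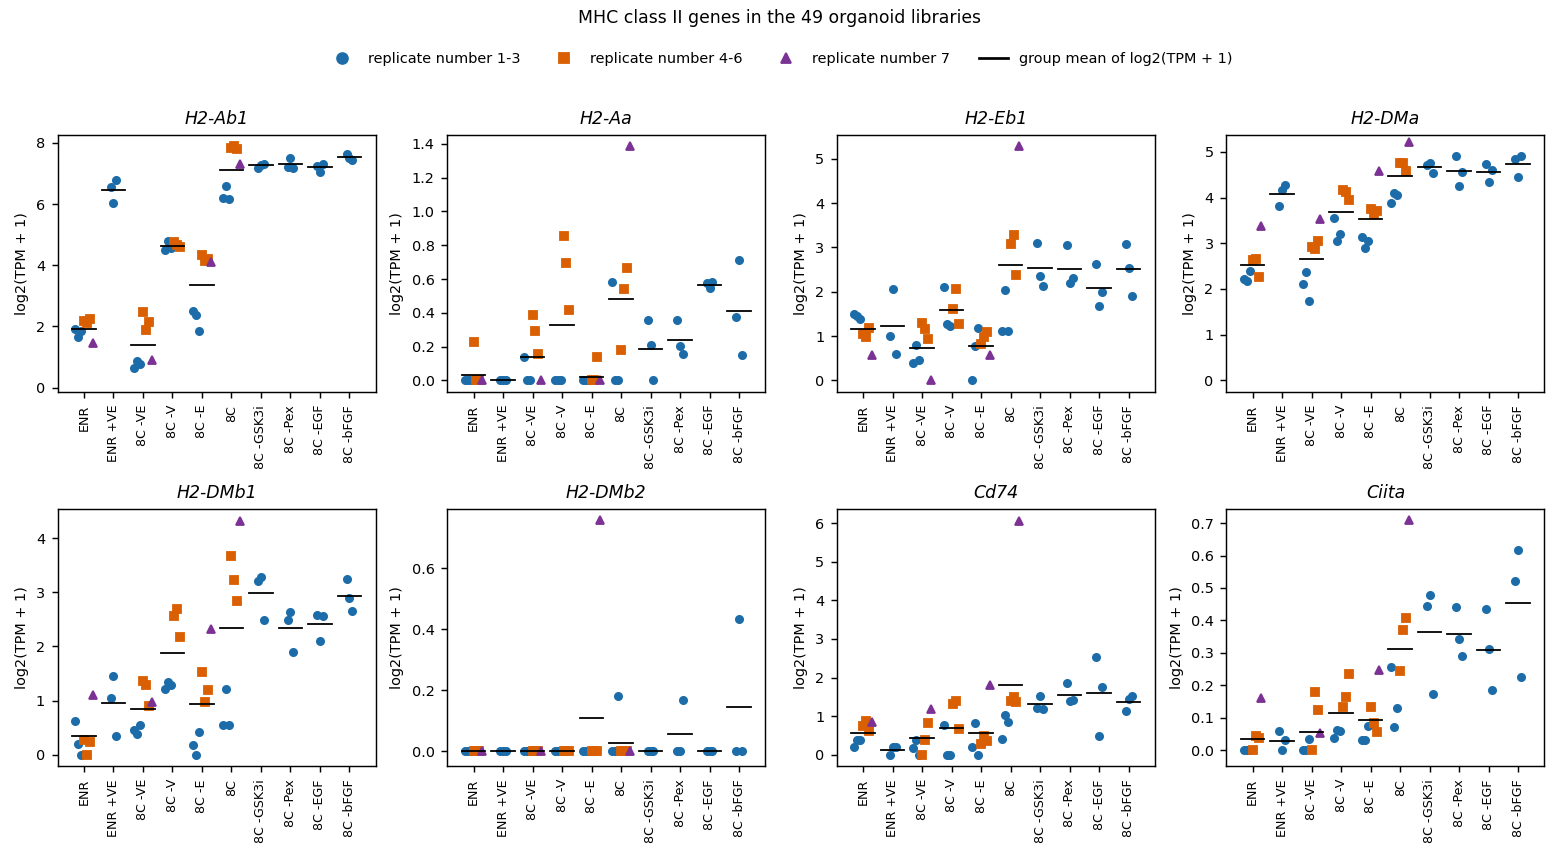
Level of each of the 8 genes in the 49 organoid libraries, as log2(TPM + 1) on the vertical axis, by culture group, with 1 point per library coloured by replicate number and a bar at the group mean. H2-Ab1 is high in every group that holds both VPA and EPZ6438, between 64.4 and 239 TPM, while H2-Aa stays at or under 1.61 TPM throughout.

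H2-Ab1, the I-A β chain, stood at a lowest value of 70.7, a median of 159 and a highest value of 239 TPM over the 7 8C libraries. In ENR organoids it was between 1.73 and 3.68 TPM (median 2.78). The groups did not overlap, and the ratio of the mean TPM was 55.1, with a log2 difference of 5.21 (SE 0.29, adjusted p = 7.49e-10, limma). In 8C -VE organoids H2-Ab1 was between 0.571 and 4.59 TPM, with a log2 difference between 8C and 8C -VE of 5.73 (SE 0.37, adjusted p = 6.35e-09). Within the 8C group the libraries of replicate numbers 1 to 3 were at 71.9, 96.4 and 70.7 TPM and those of 4 to 6 at 228, 239 and 222 TPM, so the replicate sets stood apart. The difference from ENR was 4.51 in the first set and 5.68 in the second. It held with every single library left out.

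In ENR medium the addition of both compounds gave H2-Ab1 levels of 92.5, 64.4 and 110 TPM, all above the highest ENR library at 3.68 TPM. The log2 difference was 4.55 (SE 0.21, adjusted p = 7.39e-08), a ratio of 31.6 in mean TPM. Between 8C and ENR +VE the difference of 0.66 (SE 0.41) did not pass the test (adjusted p = 0.572), and the lowest 8C libraries overlapped ENR +VE. That comparison differed between replicate sets, at -0.14 within numbers 1 to 3 and 1.39, called, within numbers 4 to 6 of the 8C group. Between 8C -VE and ENR the H2-Ab1 difference was -0.53 (SE 0.29, adjusted p = 0.309), with -1.05, called, within numbers 1 to 3 and 0.00 within numbers 4 to 6.

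H2-Ab1 was also measured with each compound alone in the 8C background. With EPZ6438 only, in 8C -V, the 6 libraries lay between 21.4 and 26.9 TPM. With VPA only, in 8C -E, replicate numbers 1 to 3 were at 4.62, 4.16 and 2.57 TPM and numbers 4 to 7 at 19.2, 16.4, 17.3 and 16.2 TPM, so the first 3 libraries stood near the ENR range and the others above it. Against 8C -VE, H2-Ab1 was higher by 3.25 in 8C -V (SE 0.29, adjusted p = 6.73e-06) with no overlap, and by 1.97 in 8C -E (SE 0.45, adjusted p = 0.00791) with overlap. Against full 8C it was lower in both groups, the 8C excess being 2.48 over 8C -V (SE 0.29, adjusted p = 3.91e-05) and 3.77 over 8C -E (SE 0.44, adjusted p = 2.50e-05). These H2-Ab1 calls held within both replicate sets and in every other setting tried. The 4 groups share libraries between these comparisons, so the values stand side by side and are not separate evidence.

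Whether the 2 compounds together gave more than the sum of their single effects on the log2 scale was tested as an interaction over 8C, 8C -V, 8C -E and 8C -VE. For H2-Ab1 the interaction was 0.51 (SE 0.57), within its error. None of the 8 genes was called, with 5 passing the filter and 0 at an unadjusted p under 0.05 (limma), where 0.581% of all tested genes were called. The effect of adding both compounds was also compared between media, as the 8C against 8C -VE difference minus the ENR +VE against ENR difference. That contrast was 1.19 for H2-Ab1 (SE 0.52, adjusted p = 0.658) and 1.83 for H2-Eb1 (adjusted p = 0.519), with 0 of 5 tested members called, 3 at an unadjusted p under 0.05, and 0.58% of all tested genes called.

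H2-Aa, the α chain that pairs with the H2-Ab1 product, was listed at 0 in 24 of the 49 organoid libraries. Its 8C values were 0.495, 0, 0, 0.135, 0.457, 0.586 and 1.61 TPM. In ENR only replicate 4 was above 0, at 0.169 TPM, and in ENR +VE all 3 libraries were at 0 while H2-Ab1 was at 64.4 TPM or more. H2-Aa therefore never passed the filter in an organoid comparison, and no fold change is given for it. In the 25 organoid libraries where H2-Aa was above 0, the ratio of H2-Ab1 to H2-Aa ran from 5.72 to 1691, with a median of 287. In the 18 crypt libraries it ran from 1.45 to 3.85, with a median of 1.85. The lowest ratio among the 16 organoid libraries with H2-Ab1 at 50 TPM or more and H2-Aa above 0 was 98.5, above every crypt library. Organoid and crypt levels are not compared with each other here, only the ratio within a library.

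**Figure D2:**
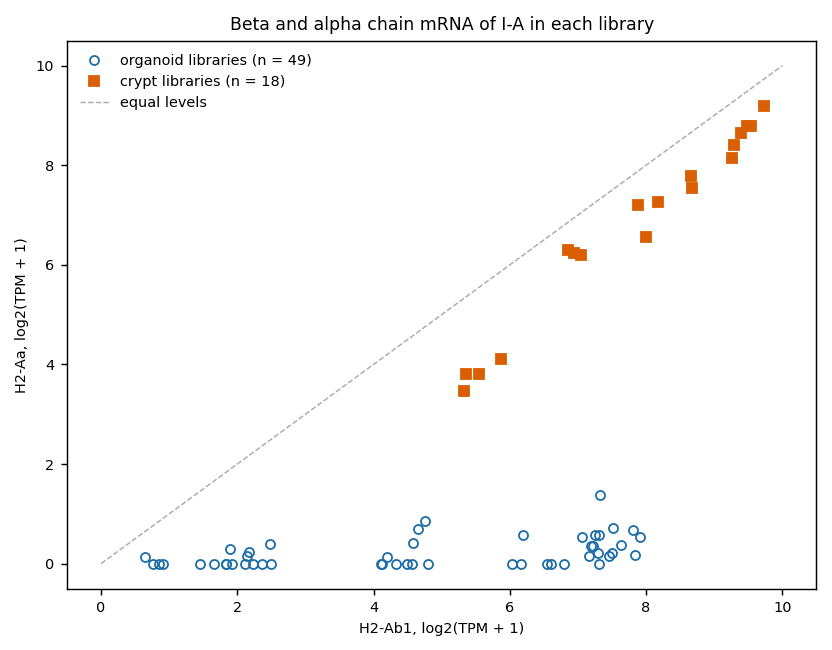
H2-Aa (vertical axis) against H2-Ab1 (horizontal axis), both as log2(TPM + 1), in 49 organoid and 18 crypt libraries, 1 point per library, with a dashed line where both are equal. The crypt points run alongside the line, at H2-Ab1 to H2-Aa ratios of 1.45 to 3.85, while the organoid points spread along the H2-Ab1 axis with H2-Aa at or under 1.61 TPM.

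H2-Eb1, the I-E β chain, was at 1.18, 3.11, 1.15, 7.46, 8.67, 4.17 and 37.9 TPM in the 8C libraries, replicate 7 standing highest. In ENR it lay between 0.479 and 1.84 TPM, which overlaps the low 8C libraries. The log2 difference was 1.45 (SE 0.50, adjusted p = 0.0334). Replicate numbers 4 to 6 alone gave 1.84, while numbers 1 to 3 alone gave -0.027. The call was lost without 8C replicate 4 (1.37) or 5 (1.34) and without ENR replicate 4, 5, 6 or 7 (1.35 to 1.45). It was lost as well under quantile normalization (1.07) and with the replicate number as a block. Against 8C -VE, at 0 to 1.47 TPM, the difference was 1.89 (SE 0.51, adjusted p = 0.0120), with 0.87, not called, within numbers 1 to 3. In ENR +VE the 3 libraries were at 1.00, 3.16 and 0.521 TPM, a difference from ENR of 0.06 (adjusted p = 0.927), unlike the H2-Ab1 values of the same libraries.

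The single-compound groups gave H2-Eb1 levels of 1.32 to 3.31 TPM in 8C -V and 0 to 1.25 TPM in 8C -E. The excess of 8C over 8C -E was 1.83 (SE 0.50, adjusted p = 0.0354), a call that was lost without 8C replicate 4, 5 or 6, or 8C -E replicate 1, 2, 4, 5 or 7 (1.71 to 1.87). Over 8C -V it was 1.02 (SE 0.54, adjusted p = 0.257). The 8C -V level exceeded 8C -VE by 0.86 (adjusted p = 0.0440), under the 2-fold limit.

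H2-DMa, the α chain of the DM exchange factor, was between 13.7 and 35.9 TPM in 8C (median 22.9) and between 3.54 and 9.33 TPM in ENR (median 4.25). The ranges did not overlap, and the ratio of mean TPM was 4.46, with a log2 difference of 1.95 (SE 0.23, adjusted p = 4.07e-06). It was 1.82 against 8C -VE (SE 0.27, adjusted p = 8.47e-05), whose libraries were at 2.35 to 10.6 TPM. In ENR +VE the values of 13.1, 17.0 and 18.3 TPM were all above ENR, by 1.56 (SE 0.25, adjusted p = 0.000894). These 3 calls held in every setting tried, with values of 1.67 to 2.18, 1.60 to 2.00 and 1.28 to 1.83. Brd2, which shares exonic bases with H2-DMa, was at a mean of 107 TPM in ENR +VE, 117 in 8C, 157 in ENR, 149 in 8C -VE, 167 in 8C -bFGF and 174 in 8C -EGF. Its part in the H2-DMa values was not tested.

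With 1 compound H2-DMa was intermediate, at 7.31 to 16.8 TPM in 8C -V and 6.49 to 23.0 TPM in 8C -E. The excess of 8C over each was under 2-fold, at 0.80 for 8C -V (SE 0.25, adjusted p = 0.0457) and 0.94 for 8C -E (SE 0.26, adjusted p = 0.0374). The latter was called without 8C -E replicate 7 (1.11) or without 8C replicate 1 (1.04) or 3 (1.01). Against 8C -VE the H2-DMa difference was 1.02 in 8C -V (SE 0.28, adjusted p = 0.0491) and 0.88 in 8C -E (SE 0.29, adjusted p = 0.0676). The first was lost under 6 other settings and the second was called, at 1.03, without 8C -VE replicate 7, so both stood at the limit of the test.

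H2-DMb1, a β chain of DM, divided the 8C libraries by replicate number, with 0.469, 1.32 and 0.459 TPM in numbers 1 to 3 and 11.7, 8.36, 6.16 and 19.0 TPM in numbers 4 to 7. ENR lay between 0 and 1.15 TPM, overlapping the first 3. The log2 difference was 1.99 (SE 0.54, adjusted p = 0.00796) and reached 3.08 within numbers 4 to 6, and over numbers 1 to 3 alone the gene was under the filter. Against 8C -VE, at 0.296 to 1.56 TPM, it was 1.5 (SE 0.53, adjusted p = 0.0538), short of the threshold. It was called without 8C replicate 1, 2 or 3 (1.68 to 1.80) and with the replicate number as a block. In 8C -V H2-DMb1 was at 1.32 to 5.46 TPM, a difference of 1.04 from 8C -VE (SE 0.28, adjusted p = 0.0426) that was lost without many of the single libraries. H2-DMb2, the other β chain, was above 0 in 4 of 49 organoid libraries and at most 0.690 TPM.

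Cd74, the invariant chain, was at 0.329, 1.04, 0.806, 1.61, 1.82, 1.56 and 66.1 TPM in 8C, so that replicate 7 stood far above the others. ENR lay between 0.140 and 0.815 TPM and ENR +VE at 0, 0.140 and 0.146 TPM. Neither comparison of 8C with ENR (1.23, SE 0.65, adjusted p = 0.162) nor with 8C -VE (1.38, SE 0.65, adjusted p = 0.149) passed the test. Without replicate 7 the 8C mean was 1.20 TPM. The same library was also the highest of its group for H2-Eb1, H2-DMa, H2-DMb1, H2-Aa and Ciita, but not for H2-Ab1. Its summed immune markers were within or close to the range of the other 6 libraries, with 1.89 TPM for 4 pan-leukocyte genes (others 1.65 to 2.79), 0.378 TPM for 6 dendritic cell genes (0.475 to 1.09) and 4.21 TPM for 6 B and plasma cell genes (1.55 to 5.41). T cell genes were at 0.740 TPM (0 to 0.598) and stromal genes at 2.90 TPM (1.00 to 1.73), both above the others.

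Ciita, the transactivator, was near the lower end of the table in organoids. It was at 0.195, 0.0515, 0.0954, 0.185, 0.292, 0.326 and 0.634 TPM in 8C, above 0 in all 7. In ENR 4 libraries were at 0 and the others at 0.0301, 0.0263 and 0.119 TPM, and ENR +VE was at 0.0414, 0 and 0.0216 TPM. Ciita did not pass the filter in any organoid comparison, and H2-Ab1 in ENR +VE stood at 64.4 to 110 TPM at these Ciita levels.

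Counted over the 8 genes, 4 were called higher in 8C than in ENR, of 5 that passed the filter, where 11.9% of all 12665 tested genes were called higher. In 8C against 8C -VE 3 of 5 were called higher (all tested genes 9.06%), and in ENR +VE against ENR 2 of 3 (8.13%). For 8C against 8C -V 1 of 5 was called higher (4.09%) and against 8C -E 2 of 5 (3.97%), while 8C -V exceeded 8C -VE in 3 of 4 (2.96%) and 8C -E exceeded 8C -VE in 1 of 3 (3.11%). In 8C -VE against ENR 0 of 3 were called, with 0 at an unadjusted p under 0.05 (limma, 3.19% of tested genes called either way), and in 8C against ENR +VE 0 of 5, with 0 unadjusted (3.87%). A member that passed the filter only through the group in which it was high had to differ, so these counts describe the 8 genes and support nothing further. The median log2 difference of the tested members was 1.95 in 8C against ENR, beside 0.08 over all tested genes, and 1.56 in ENR +VE against ENR, beside 0.09. Quantile normalization shifted the share of lower calls among all genes from 21.7% to 35.4% in 8C against ENR, from 15.1% to 27.6% against 8C -VE, from 8.33% to 24.5% in ENR +VE against ENR and from 21.3% to 34.9% in 8C against 8C -V. Of the tested members in these comparisons only H2-Eb1 in ENR +VE against ENR, not called, changed direction, from 0.06 to -0.37.

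**Figure D3:**
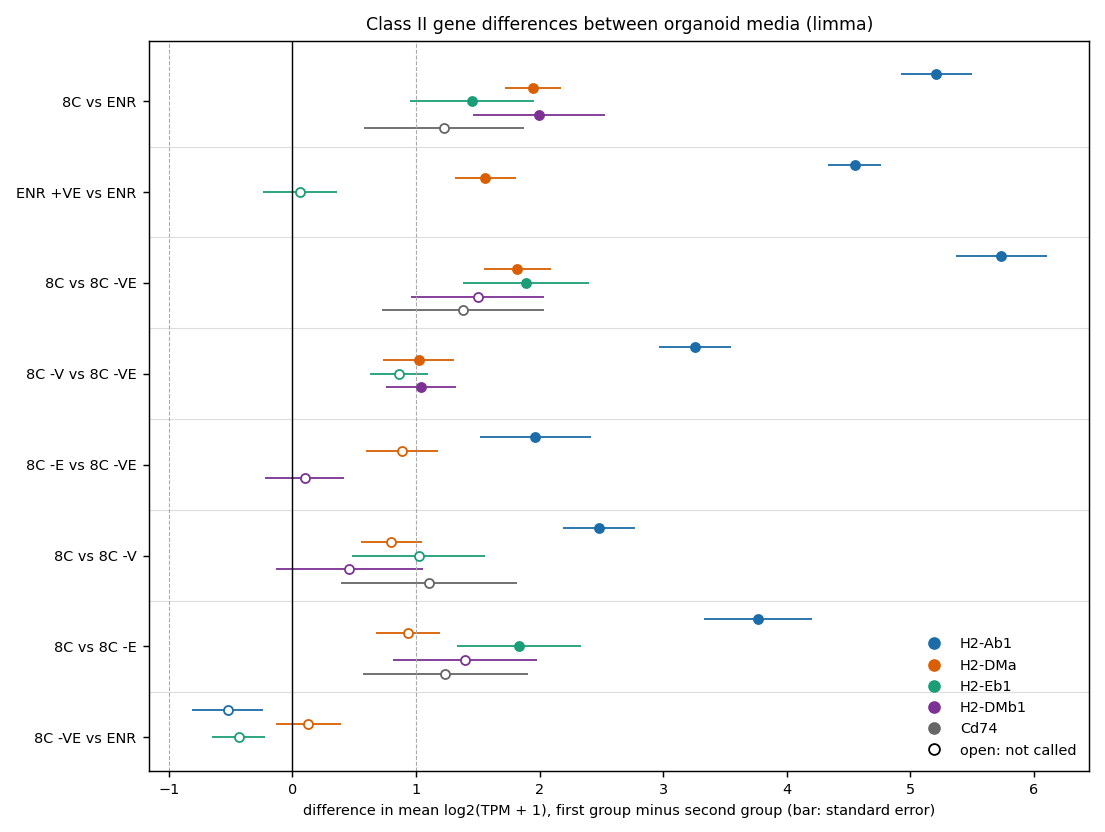
Log2 difference (limma, log2(TPM + 1), horizontal axis) with its standard error for the tested class II genes in 8 organoid comparisons, filled where called at an adjusted p under 0.05 and 2-fold. H2-Ab1 has the highest value in each comparison in which both compounds, or either, are added, from 1.97 to 5.73.

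Of the other components of 8C medium, GSK-3 Inhibitor XV, Pexmetinib, EGF and bFGF were left out 1 at a time. LDN193189 and the R-Spondin 1 conditioned medium stayed in every 8C-based group. H2-Ab1 was at 145, 155 and 158 TPM without GSK-3 Inhibitor XV, 148, 181 and 143 without Pexmetinib, 151, 132 and 158 without EGF, and 198, 182 and 174 without bFGF. All 12 values lay between the low (70.7 to 96.4) and the high (222 to 239) replicate sets of 8C. The 8C differences were -0.15 (SE 0.39), -0.18, -0.09 and -0.42, with adjusted p between 0.869 and 0.947. None of the 5 tested members was called in any of these comparisons and none had an unadjusted p under 0.05 (limma), where 0% (-GSK3i), 0.482% (-Pex), 0.451% (-EGF) and 0.00779% (-bFGF) of all tested genes were called. Which 8C libraries entered the comparison set the direction. H2-Ab1 differed by -1.22, called, from 8C -bFGF with 8C numbers 1 to 3 only and by 0.32 with numbers 4 to 6 only, and for H2-DMb1 the values were -2.16, called, and 0.32. The omission groups carry numbers 1 to 3, and the labels do not say whether their numbers mark shared cultures.

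Ordered by mean level, H2-Ab1 ran from 8C -bFGF (185 ± 12.5 TPM, SD, n = 3), 8C -Pex (157 ± 20.7, n = 3), 8C (155 ± 75.8, n = 7), 8C -GSK3i (153 ± 6.78, n = 3) and 8C -EGF (147 ± 13.6, n = 3), whose neighbours overlap, to ENR +VE (89.0 ± 23.1, n = 3), 8C -V (24.0 ± 2.10, n = 6) and 8C -E (11.5 ± 7.31, n = 7), with no overlap between neighbours from 8C -EGF down to 8C -E. ENR (2.82 ± 0.722, n = 7) and 8C -VE (1.95 ± 1.61, n = 7) came last and overlapped each other, and ENR overlapped the low 8C -E libraries. H2-Ab1 made up a mean of 77.9% of the summed TPM of the 8 genes in 8C and 81.8% in ENR +VE, against 57.6% in 8C -V, 41.6% in 8C -E, 29.1% in ENR and 18.3% in 8C -VE. Over all 49 organoid libraries its log2 level correlated with H2-DMa at r = 0.905, with H2-DMb1 at 0.760, with H2-Eb1 at 0.713, with Ciita at 0.701, with Cd74 at 0.465 and with H2-Aa at 0.459. These are descriptions over libraries that share media, and many low values enter them.

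Other genes of the presentation pathway were counted from fixed lists. Of 5 tested endosomal processing genes, 2 were called higher and 1 lower in 8C than in ENR, where 11.9% of all tested genes were called higher and 3.31% lower. Lgmn, the asparaginyl endopeptidase legumain, was at a mean of 237 against 41.8 TPM (2.39, adjusted p = 1.37e-07), and Ctsl, cathepsin L, at 67.8 against 16.8 TPM (2.00). Ctss, cathepsin S, which cleaves the invariant chain in antigen-presenting cells, was lower, at 31.5 against 68.1 TPM (-1.11). The same 3 genes were called in the same directions in 8C against 8C -VE (Lgmn 1.59, Ctsl 1.05, Ctss -1.22) and in ENR +VE against ENR (Lgmn 1.36, Ctsl 1.20, Ctss -1.99). The endosomal list had a median of 0.64 in 8C against ENR, beside 0.08 over all tested genes.

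Of 3 tested costimulation genes 2 were called higher in 8C than in ENR, where 11.9% of all tested genes were, and both passed the filter only through the group in which they were high. Cd40, a receptor for T cell help on antigen-presenting cells, was at a mean of 6.39 against 0.182 TPM (2.57). Cd274, the inhibitory ligand PD-L1, was at 5.69 against 0.972 TPM (1.71). Both were also called higher in 8C against 8C -VE (2.17 and 1.36, all tested genes 9.06%) and in ENR +VE against ENR (1.88 and 1.04, all tested genes 8.13%). None of the 7 promoter-binding factors (Rfx5, Rfxank, Rfxap, Creb1, Nfya, Nfyb and Nfyc) and none of the 6 tested genes of the interferon γ axis was called in 8C against ENR. The summed level of the 7 factors was 156 to 237 TPM over all organoid libraries. The further class II genes H2-Oa, H2-Ob and H2-Eb2 together reached at most 0.309 TPM there.

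The organoid label was checked against cell type markers. The 8 epithelial markers summed to between 7953 and 14759 TPM per library. The summed levels of 8 T cell genes were at most 0.740 TPM, of 6 dendritic cell genes at most 1.09 (Siglech at 0 in all), of 4 pan-leukocyte genes at most 3.34, of 6 B and plasma cell genes at most 9.38 (of which up to 9.24 was Cd79b) and of 6 macrophage genes at most 17.5 TPM (of which up to 15.3 was Cd68). Stromal and endothelial genes (7 genes) summed to at most 2.90 TPM. Some of these low sums were higher in 8C than in ENR, and some of them also in ENR +VE. The pan-leukocyte sum was at 1.65 to 2.79 TPM in 8C and 0.0310 to 0.680 TPM in ENR, up to 2.47 TPM of it from Coro1a, with Cd53 at 0 in both groups. Coro1a was called in 8C against 8C -VE at 1.88 against 0.126 TPM (1.35), and the other 3 genes of that list were under 1 TPM in every 8C library. The 1 gene of the list tested in 8C against ENR +VE was also called higher in 8C (1.07), so its 8C level was not shared by ENR +VE. The dendritic cell sum was at 0.378 to 1.09 TPM in 8C and 0.509 to 0.557 in ENR +VE, against 0.0589 to 0.219 in ENR and 0.0220 to 0.163 in 8C -VE, with Clec9a and Siglech at 0 in all 4 groups. The highest sums of 1.09 in 8C and 0.557 in ENR +VE came from Zbtb46 alone, so these sums describe mainly 1 gene. The stromal sum was at 1.00 to 2.90 TPM in 8C and 0.753 to 1.98 in ENR +VE, against 0.274 to 0.678 in ENR and 0.237 to 0.774 in 8C -VE, with Col1a1 at up to 2.23 TPM in 8C. Cd79b went the other way, at 2.66 in 8C and 6.57 in 8C -VE (-1.17). The part of such transcripts in the class II levels was not tested.

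Genes were ranked by correlation with the mean log2 level of the members above a mean of 1 TPM, over the 49 organoid libraries. Of 12625 genes, with the members and predicted genes (Gm or Rik names) left out, the 5 most similar were Ret (r = 0.953), Kctd17 (0.944), Reg3g (0.943), Gcnt1 (0.924) and Fam81a (0.921). Ret, a receptor tyrosine kinase, was at a mean of 14.9 TPM in 8C, 6.56 in ENR +VE, 1.86 in ENR and 1.76 in 8C -VE. Reg3g, an antimicrobial lectin of the intestinal epithelium, was at 1372 TPM in 8C, 483 in ENR +VE, 32.9 in ENR and 33.5 in 8C -VE. Kctd17 followed the same order at 38.7, 12.6, 1.39 and 1.28 TPM. For all 5 genes the 8C and ENR +VE means were above the ENR and 8C -VE means.

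In the crypts all 8 genes were detected, at levels that changed with time after irradiation. Without the compounds H2-Ab1, H2-Aa and H2-Eb1 were highest on day 2, and every tested member was lower than normal on day 5. In normal crypts Cd74 was at 774 and 463 TPM, H2-Ab1 at 409 and 255, H2-Eb1 at 231 and 159, H2-Aa at 185 and 93.0, H2-DMa at 56.2 and 36.0, H2-DMb1 at 44.8 and 21.0, Ciita at 3.56 and 1.72 and H2-DMb2 at 2.62 and 2.15 TPM. Crypt preparations can hold immune cells beside epithelium, and in bulk RNA fewer cells of a type cannot be told apart from less RNA per cell.

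**Figure D4:**
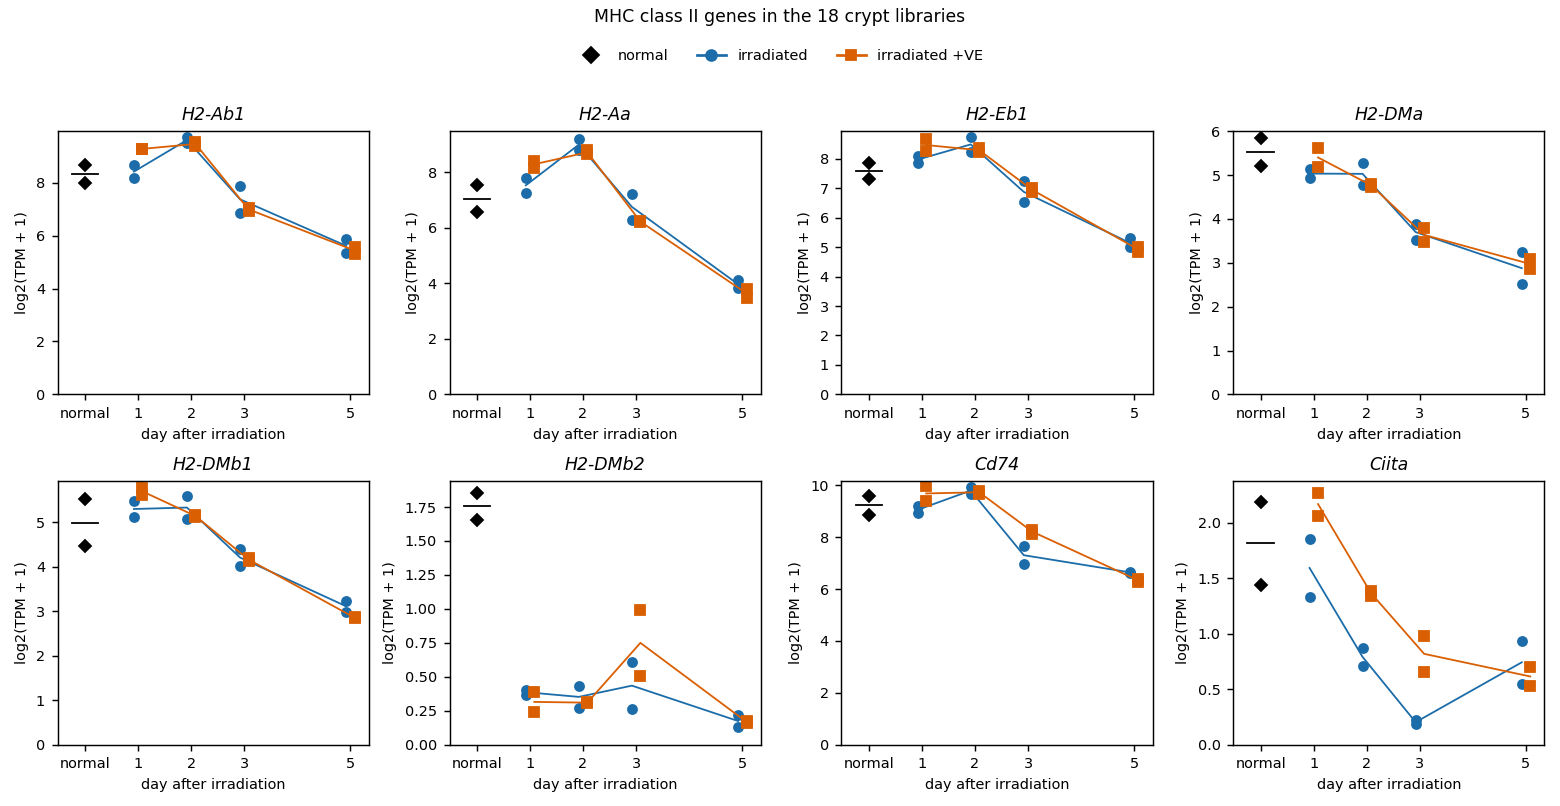
Level of each of the 8 genes, as log2(TPM + 1) on the vertical axis, in normal crypts and 1, 2, 3 and 5 days after irradiation (horizontal axis), without and with VPA and EPZ6438, 1 point per library and 2 per group. H2-Ab1 and H2-Aa peak on day 2, at 717 and 849 and at 439 and 584 TPM without the compounds, and the tested genes other than Ciita, which without the compounds is lowest on day 3, are lowest on day 5.

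Beside the class II genes, the whole libraries shifted. The median log2 difference over all 10802 tested genes was -0.36 on day 1, -0.61 on day 2, -1.03 on day 3 and 0.27 on day 5 against normal, with the mitochondrial share at 12.7% to 18.1% in normal crypts, 29.7% to 31.8%, 32.6% to 39.9%, 37.9% to 48.4% and 11.8% to 12.3% on the 4 days. The share of lower calls among all called genes depended on the scaling, at 79.3%, 85.2%, 95.3% and 35.4% on days 1, 2, 3 and 5 as deposited, 37.4%, 50.0%, 59.0% and 66.7% after scaling to the 75th percentile, 36.3%, 44.3%, 55.2% and 53.5% after quantile normalization, and 47.1%, 63.1%, 85.1% and 44.7% without mitochondrial genes. Differences are therefore also given relative to the median gene.

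On day 1 without the compounds H2-Ab1 was at 287 and 405 TPM and H2-Aa at 152 and 219 TPM, both overlapping normal crypts. None of the 7 tested members was called and 0 had an unadjusted p under 0.05 (limma), where 6.92% of all genes were called. H2-DMb2, which was under the filter, had fallen from 2.62 and 2.15 TPM to 0.324 and 0.290 TPM, and it stayed between 0.0936 and 0.988 TPM in every irradiated library, below both normal libraries. Signs on day 1 depended on the scaling for Cd74 (-0.17, or 0.24 at the 75th percentile) and Ciita (-0.22, or 0.04).

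On day 2 H2-Aa was at 439 and 584 TPM, a ratio of 3.68 in mean TPM to normal (log2 difference 1.94, SE 0.32, adjusted p = 0.000320, or 2.55 relative to the median gene). H2-Ab1 was at 717 and 849 TPM (1.27, SE 0.30, adjusted p = 0.00362, relative 1.88), above both normal libraries. H2-Eb1 was at 297 and 428 TPM, a difference of 0.89 (SE 0.26, adjusted p = 0.0109) that was under 2-fold as deposited and was called at 1.11 to 1.51 under the 3 other scalings, and at 1.15 without day 2 replicate 1 or 1.16 without normal replicate 1. Ciita went the other way, at 0.832 and 0.633 TPM (-1.03, SE 0.27, adjusted p = 0.00635), although its call was lost under all 3 other scalings (-0.91 to -0.53) and without normal replicate 1 (-0.65) or day 2 replicate 2 (-0.94). The H2-Ab1 difference fell under 2-fold, to 0.93, without normal replicate 2.

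The invariant chain Cd74 was at 816 and 971 TPM on day 2 (0.57, adjusted p = 0.0860, relative 1.18). H2-DMa at 26.4 and 37.9 TPM differed by -0.50 (adjusted p = 0.151), a sign that turned at the 75th percentile (0.11) and under quantile normalization (0.03). Of the 7 tested members, 3 were called in either direction, where 30.8% of all genes were. The T cell markers summed to 359 and 406 TPM, within the normal range of 216 to 669 TPM, while the B and plasma cell sum was at a mean of 8.19 TPM against 106 to 172 TPM in normal crypts, and the dendritic cell sum at 0.619 to 0.807 against 3.68 to 4.63 TPM, with Xcr1 and Siglech at 0. The part of these cell types in the day 2 values was not tested.

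On day 3 H2-Ab1 and H2-Aa were below their day 2 levels, with H2-Ab1 at 235 and 115 TPM and H2-Aa at 146 and 77.3 TPM. Against normal, 3 of 7 tested members were called lower, where 51.3% of all tested genes were, so the members' share was not above the background. Cd74 was at 202 and 123 TPM (-1.92, adjusted p = 2.64e-05, relative -0.89), H2-DMa at 13.7 and 10.5 TPM (-1.82, adjusted p = 6.19e-05, relative -0.79) and Ciita at 0.167 and 0.134 TPM (-1.61, adjusted p = 0.000109, relative -0.58). At the 75th percentile Cd74 (-0.65) and H2-DMa (-0.61) were no longer called, nor was H2-DMa under quantile normalization (-0.68). Brd2, which shares exonic bases with H2-DMa, was at a mean of 78.2 TPM in normal crypts, 5.36 on day 3 and 35.6 on day 5. Its part in the H2-DMa values of the crypts was not tested. H2-Ab1 (-0.97, adjusted p = 0.00937), H2-Eb1 (-0.72) and H2-DMb1 (-0.79) were under 2-fold as deposited and turned to 0.30, 0.55 and 0.44 at the 75th percentile, and the H2-Aa value of -0.30 turned to 0.96. Without day 3 replicate 1 or normal replicate 2, H2-Ab1 was called (-1.48 and -1.31), as were H2-Eb1 (-1.08) without the former and H2-DMb1 (-1.31) without the latter, and the count of called members ran from 3 to 5 over the libraries left out. The T cell sum was at 180 and 663 TPM on day 3, the macrophage sum at 11.1 and 21.0, and 3 of 4 pan-leukocyte and 3 of 3 tested B and plasma cell genes were called lower than normal. Their part in the day 3 values was not tested.

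On day 5 H2-Ab1 was at 57.6 and 39.9 TPM, H2-Aa at 16.3 and 13.1 TPM and Cd74 at 98.1 and 99.9 TPM, all below every normal library. The log2 differences were -2.73 for H2-Ab1 (adjusted p = 1.99e-05), -3.08 for H2-Aa (adjusted p = 1.15e-05), -2.45 for H2-Eb1 (adjusted p = 1.35e-05), -2.65 for H2-DMa (adjusted p = 1.56e-05), -1.88 for H2-DMb1 (adjusted p = 0.000313), -2.58 for Cd74 (adjusted p = 1.22e-05) and -1.07 for Ciita (adjusted p = 0.00935). All 7 tested members were called lower, where 5.61% of all genes were. The direction held under every scaling, with -3.01 to -3.07 for H2-Ab1 under quantile normalization and at the 75th percentile. The Ciita call was lost without day 5 replicate 2 (-0.88) or normal replicate 1 (-0.70), with only the 2 groups in the fit (-1.07) and under quantile normalization (-0.91).

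Immune markers moved with the class II genes on day 5. The 8 T cell and intraepithelial lymphocyte genes summed to 6.57 and 17.6 TPM against 216 and 669 in normal crypts, and all 7 of them that were tested were called lower. The 6 B and plasma cell genes summed to 1.37 and 1.59 TPM against 106 and 172 (3 of 3 tested lower). The 6 dendritic cell genes were at 0.0949 and 0.154 TPM against 3.68 and 4.63 (Flt3, Xcr1, Clec9a and Siglech at 0), and the 4 pan-leukocyte genes at 2.40 and 4.29 TPM against 46.4 and 67.3 (4 of 4 tested lower). Macrophage genes were at 3.14 and 5.19 TPM against 12.7 and 15.0, with 1 of 3 tested lower. The epithelial sum was higher than or close to normal, at 6910 to 8510 against 5624 to 7001 TPM. The part of these cell types in the class II decrease was not tested.

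**Figure D5:**
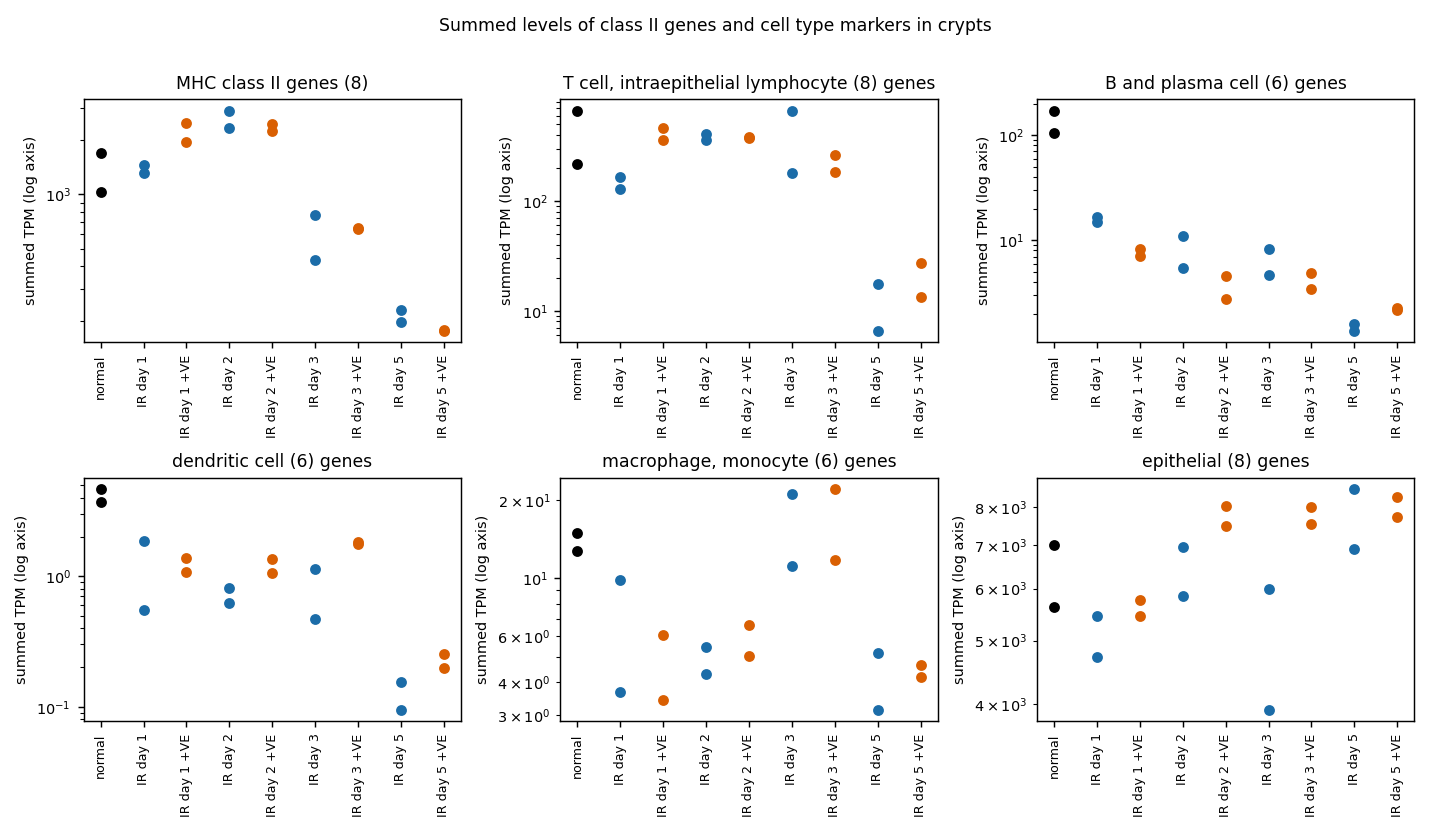
Summed TPM, on log axes, of the 8 class II genes and of 5 marker lists (T cell and intraepithelial lymphocyte, B and plasma cell, dendritic cell, macrophage, epithelial) in each crypt group, 1 point per library. The class II sum runs from 2329 to 2918 TPM on day 2 to 196 to 228 TPM on day 5, where the T cell sum is at 6.57 and 17.6 TPM and the epithelial sum at 6910 to 8510 TPM.

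Treatment with VPA and EPZ6438 was compared with irradiation alone on each day. The treated libraries held mitochondrial shares of 17.4% to 23.4%, 26.3% to 29.2%, 25.4% to 41.5% and 10.6% to 15.1% on days 1, 2, 3 and 5, and the median gene differed by 0.27, 0.42, 0.69 and 0.03. On day 1 H2-Ab1 was at 624 and 613 TPM with the compounds and at 287 and 405 TPM without, a difference of 0.86 (adjusted p = 0.308). H2-Aa at 338 and 284 TPM (0.76, adjusted p = 0.351), Cd74 at 1010 and 673 TPM (0.63, adjusted p = 0.354) and Ciita at 3.83 and 3.19 TPM (0.58, adjusted p = 0.378) were likewise above both untreated libraries. Of the 7 tested members 0 were called, 3 had an unadjusted p under 0.05 (limma), and 0.00926% of all genes were called. The T cell sum was at 362 to 464 TPM with the compounds and at 128 to 167 TPM without, the pan-leukocyte sum at 31.7 to 33.1 against 11.9 to 23.2 TPM, and the B and plasma cell sum was lower, at 7.09 to 8.34 against 15.0 to 16.7 TPM. Their part in the day 1 values was not tested.

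On day 2 with the compounds H2-Ab1 was at 741 and 669 TPM, H2-Aa at 439 and 398 and Cd74 at 890 and 813 TPM, close to the untreated day 2 libraries. Ciita was at 1.53 and 1.62 TPM against 0.832 and 0.633 (0.57), above both untreated libraries. None of the 7 was called and 0 had an unadjusted p under 0.05 (limma), where 8.38% of all genes were called as deposited and 0 genes under each of the 3 other scalings. On day 3 Cd74 was at 313 and 280 TPM against 202 and 123 (0.91, adjusted p = 0.0118, under 2-fold, and 0.21 relative to the median gene). It was called, at 1.26, without day 3 replicate 1. Ciita was at 0.974 and 0.576 TPM against 0.167 and 0.134 (0.62, adjusted p = 0.0673). H2-Ab1 at 122 and 131 TPM and H2-Aa at 74.3 and 72.6 TPM differed by -0.38 and -0.53, or -1.07 and -1.22 relative to the median gene, and both were called lower (-1.12 and -1.27) at the 75th percentile. The T cell sum was at 185 and 261 TPM with the compounds and at 180 and 663 TPM without, the pan-leukocyte sum at 28.3 and 29.0 against 13.3 and 35.2 TPM, and 2 of 4 pan-leukocyte genes were called higher with the compounds. Their part was not tested. As deposited 0 of 7 were called on day 3, with 2 at an unadjusted p under 0.05 (limma), where 31.7% of all genes were called, of which the lower share was 0.175% as deposited, 11.8% at the 75th percentile and 29.0% under quantile normalization.

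On day 5 with the compounds H2-Ab1 was at 46.0 and 39.0 TPM and Cd74 at 75.6 and 83.7 TPM, and differences from irradiation alone ran from -0.33 to 0.09 with 0 of 7 called, 0 at an unadjusted p under 0.05 (limma) and 0.0185% of all genes called. Averaged over the 4 days, Ciita differed by 0.41 (SE 0.14, adjusted p = 0.0191), under 2-fold and 0.05 relative to a median gene that differed by 0.36. Cd74 differed by 0.29 (adjusted p = 0.0804), a sign that turned to -0.10 at the 75th percentile, and the other 5 by -0.09 to 0.04, all below 0 under the 3 other scalings. Over the days 0 of 7 were called, 2 had an unadjusted p under 0.05 (limma), and 3.55% of all genes were called. As deposited, no H2-Ab1 difference between irradiated crypts with and without the compound pair was called, and the organoid and crypt responses were not tested against each other.

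The proportions of the members in crypts were described by ratios and shares within a library. Across the 18 crypt libraries the ratio of Cd74 to H2-Ab1 ran from 0.858 to 2.57, of H2-Ab1 to H2-Eb1 from 1.01 to 2.41 and of H2-DMa to H2-DMb1 from 0.618 to 1.71. H2-Ab1 made up 18.7% to 31.2% of the summed TPM of the 8 genes and Cd74 26.3% to 51.0%. The shares of the low members varied more widely, from 0.022% to 0.402% for Ciita and from 0.009% to 0.208% for H2-DMb2. The log2 level of H2-Ab1 correlated with H2-Aa at r = 0.986, with H2-Eb1 at 0.979, with Cd74 at 0.958, with H2-DMb1 at 0.957, with H2-DMa at 0.897 and with Ciita at 0.557 over these libraries, which share immune cell content, days and scaling. Of 10802 genes, with the members and predicted genes again left out, the most similar were H2-T23 (r = 0.920), Ifi27 (0.912), Ifi27l2b (0.910), Ifi35 (0.910) and Vamp5 (0.908). H2-T23, a nonclassical class I gene, was at a mean of 170 TPM in normal crypts, 156, 305, 112 and 75.9 TPM on days 1, 2, 3 and 5, so it too was highest on day 2 and lowest on day 5. Ifi27l2b, an interferon-inducible gene, followed at 268, 352, 541, 88.6 and 70.1 TPM.

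Pathway genes in the crypts were counted from the same lists. Irf1, an interferon-induced transcription factor, was called lower than normal on all 4 days (-1.43, -1.20, -2.48 and -1.21). Of 5 tested endosomal processing genes, 2 were called higher than normal and 0 lower on each of days 2, 3 and 5. They were Lgmn (2.49) and Ctsd, cathepsin D (1.11), on day 2, Lgmn (1.62) and Ctsl (1.69) on day 3, and Lgmn (2.38) and Ctsl (2.10) on day 5, when Lgmn was at 64.9 against 11.3 TPM and Ctsl at 78.6 against 17.0 TPM. Of all 10802 genes 3322, 5814 and 1711 were called on these days, of which 2830, 5538 and 606 were lower. On day 3 5 of 6 tested interferon γ axis genes and 4 of 7 promoter-binding factors were called lower, where 51.3% of all tested genes were as deposited and 16.5% at the 75th percentile. The factors were Nfyc (-2.09), Rfxank (-1.79), Rfxap (-1.69) and Nfya (-1.02), beside the median of -1.03 over all genes. With the compounds on day 3, 4 of 6 tested interferon γ axis genes, Jak1 (1.94), Jak2 (1.43) and Irf1 (1.37) among them, were called higher than with irradiation alone. Of the 7 promoter-binding factors 3 were, Rfxap (1.49), Nfya (1.14) and Nfyc (1.36). Over all genes 31.7% were called, nearly all higher as deposited, with a median of 0.69. H2-Oa, H2-Ob and H2-Eb2 summed to 2.74 to 3.56 TPM in normal crypts and to at most 0.525 TPM in irradiated ones.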

How the data were processed

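The authors trimmed reads with Trimmomatic 0.39, aligned them with STAR 2.7.3a to mm10 and counted with featureCounts (version not given), and deposited 1 table of TPM per gene for 67 libraries. How TPM was derived, the annotation and the strand setting are not given in the sources used here. TPM is relative to the library's total, so a change in abundant genes moves all others.

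Groups and replicate numbers came from the labels. The 8 genes and all lists were chosen with earlier results of these data known. Linear models of log2(TPM + 1) were fitted in R 4.3.3 with limma 3.58.1, using its trended and robust eBayes moderation, to genes that averaged 1 TPM or more in the compared libraries, and p-values were Benjamini-Hochberg adjusted over all genes tested. Organoid comparisons used only their own groups, and crypt comparisons used all 9 crypt groups in 1 fit. Named genes were the members, called list genes and, with members and predicted genes left out, the 5 most correlated genes in each tissue. The fits were tested on simulated data. Replicate numbers paired the libraries, by deviations that correlated in every pair, for 8C -VE against ENR (lowest r = 0.313), 8C against 8C -V (0.106), 8C -V against 8C -VE (0.690) and 8C -E against 8C -VE (0.647), and the block changed no member's call there. Alternatives changed the pseudocount, scaling, filter, fold limit, eBayes options, block, groups fitted, replicate set and single libraries. Figures were drawn with matplotlib 3.10.9.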

Additional observations from a re-analysis of the deposited data

Results flagged for a closer look

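In 7 of 37 gene and group pairs that could be examined, a single organoid library stood apart from the rest of its group by more than Dixon's 95% critical value, which chance does in about 1 in 20 groups. That rate does not apply to the 4 H2-Aa and H2-DMb2 pairs, in which all other libraries were at 0 and any value above 0 stands apart. Cd74 in 8C replicate 7 was at 66.1 TPM, where the other 6 libraries were between 0.329 and 1.82 TPM. H2-DMa in ENR replicate 7 was at 9.33 TPM against 3.54 to 5.26 TPM in the others, and Ciita in the same library at 0.119 TPM against 0 to 0.0301 TPM. H2-Aa was at 0.169 TPM in ENR replicate 4 and at 0.102 TPM in 8C -E replicate 6, with every other library of those groups at 0. H2-DMb2 was at 0.133 TPM in 8C replicate 3 and at 0.69 TPM in 8C -E replicate 7, again with all others of the group at 0. Replicate number 7 thus held 4 of the 7 values, and no cause was tested.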

How the results depend on the processing

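Over all alternatives, 2526 member differences kept their side of the threshold, among them uncalled values that changed sign, 55 gained a call, 59 lost 1 and 3 turned with a call in the value reported or in the alternative, and 476 counts of called members stayed within 1.5 times the reported count while 46 did not. H2-Ab1 and H2-DMa held in 8C against ENR, 8C against 8C -VE and ENR +VE against ENR under every setting. H2-DMb1 in 8C against 8C -Pex turned from 0.01 to -1.56, with the replicate block and with 8C replicate numbers 1 to 3 only, and H2-Eb1 in 8C against ENR turned to -0.027 with numbers 1 to 3 only. The count of called members moved from 4 to 2 in 8C against ENR, 0 to 1 in 8C -VE against ENR, 2 to 1 in 8C against 8C -E and 0 to 1 in 8C against 8C -EGF with numbers 1 to 3 only. With numbers 4 to 6 only it moved from 3 to 5 in 8C against 8C -VE, 1 to 2 against 8C -V and 0 to 3 against ENR +VE. With all 10 organoid groups in the fit it was 5 for 8C against 8C -VE and 2 against 8C -V. The replicate block, and also numbers 1 to 3 only, gave 1 call against 8C -GSK3i, 1 against 8C -Pex and 2 against 8C -bFGF, each from 0. For 8C -V against 8C -VE it fell from 3 to 1 at the 75th percentile, under quantile normalization and at a minimum of 5 TPM. For 8C against 8C -E it fell from 2 to 1 under quantile normalization, at a minimum of 5 TPM and with no minimum. With no minimum fold it was 2 against 8C -V, 1 for +VE over days, 1 for +VE on day 3 and 6 on day 3 against normal. On day 3 against normal it fell from 3 to 1 at the 75th percentile. With +VE on day 3 it rose from 0 to 2 at the 75th percentile and to 1 with a pseudocount of 0.1. On day 1 against normal it was 1 with no minimum TPM. Leaving out each library in turn gave 1 to 3 calls for 8C -V against 8C -VE, 1 to 3 for 8C against 8C -E, 1 to 2 for 8C -E against 8C -VE, 3 to 4 for 8C against ENR, 3 to 4 for 8C against 8C -VE, 2 to 4 on day 2, 3 to 5 on day 3, 6 to 7 on day 5 and 0 to 1 for +VE on day 3. The cause was not tested in any of these.

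Where the labels' numbers did not pair the libraries, the block moved the genes called of all tested from 0 to 725 against 8C -GSK3i, 62 to 500 against 8C -Pex, 1 to 522 against 8C -bFGF and 1 to 20 for +VE on day 1. For the interaction, whose pairing was not examined as a whole, the block moved them from 73 to 127. With the block H2-DMb1 was called in 8C against 8C -VE (adjusted p = 0.0128) and against 8C -E, and H2-Eb1 was not called in 8C against ENR. It changed no other call in comparisons not named in this section. The best match of a library was its own number in 10 of 14 libraries for 8C against ENR, 9 of 14 against 8C -VE and 8 of 14 against 8C -E. Crossed pairs, added after seeing the data, called 0 members on day 1 and 4 on day 2. Scaling to the 75th percentile changed the genes called from 747 to 444 on day 1, 3322 to 1993 on day 2, 5814 to 2994 on day 3, 1711 to 1203 on day 5 and 3424 to 1855 for +VE on day 3. Depth is unknown, so values near 0, as for H2-Aa, H2-DMb2 and Ciita in organoids, carry no counting error.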
